A study of Mus musculus with 4 samples.

Results

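The complement genes described here are 9 transcripts of the innate immune cascade that tags and lyses targets, chosen by name among the 24421 rows of a gene count table: C1qa, C1qb, C1qc, C3, C4b, Cfb, Cfd, Serping1 and C5ar1. All 9 were listed and all 9 passed the filter on low counts, which kept 13103 genes. They were followed in 4 libraries of poly(A) RNA from the superficial zone of articular cartilage, dissected from the medial femoral condyle of C57BL/6J mice at 8 weeks after surgery. Both knees of 2 mice, M04 and M05, were used: 1 had undergone DMM, a surgical destabilization of the medial meniscus that leads to osteoarthritis, and the other a sham operation. This left 2 libraries per group, 1 per knee. The sample labels give wild type as the genotype of both mice, whereas the design text of the series marks M05 as KO and names no gene, so M05 against M04 is reported as a difference between 2 animals. The free-text descriptions of the sham libraries also speak of a DMM knee; the titles and the treatment field were followed.

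In the classical pathway, C1q recognises antibody complexes and cell debris, and its proteases cleave C4 and C2. The alternative pathway starts from C3 itself, where factor B, once cleaved by factor D, joins C3b in the enzyme that amplifies C3 cleavage. Fragments released downstream call in and activate leukocytes through receptors such as C5aR1. The liver makes most circulating complement, but macrophages are the chief source of C1q, adipocytes of factor D, and chondrocytes and fibroblasts also make C3, C4 and C1 inhibitor.

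The libraries held 12712425 to 19336628 counts, and the 9 genes took 0.110% to 0.146% of them. Transcripts of marrow and blood were abundant: the 10 haemoglobin rows held 25.7% to 35.3% of the counts. The 10 chondrocyte markers summed to 4848 CPM (counts scaled to the library total, with TMM normalisation) in the sham and 5694 in the DMM knee of M04, and in M05 1201 and 4221, so the sham knee of M05 stood far below the other libraries. None of the 10 was at 0 in all libraries. The 6 hepatocyte markers summed to at most 1.41 CPM, nearly all of it Apoa2, and Ttr, Fgb and Serpina3k were at 0 in every library. The 8 skeletal muscle markers, led by Myh4 and Acta1, ran from 125 to 445 CPM and were highest in the DMM knee of M04 and the sham knee of M05, and the 7 erythroid markers, led by Hba-a1 and Hba-a2, ran from 187439 to 319678 CPM. In such bulk tissue, fewer cells of a type and less RNA per cell cannot be told apart.

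Upstream sequences are shown for C1qb and C3, a chain of the recognition molecule and the gene with the most counts of the 9. They are the 250 bases before the RefSeq start in build GRCm38.p6, which is not the build of the count table (GRCm39), and capitals mark the motifs that were found. RefSeq windows were found for 5 of the 9 genes (C1qb, C1qc, C3, Cfd and C5ar1).
C1qb, chr4:136886201-136886450, minus strand: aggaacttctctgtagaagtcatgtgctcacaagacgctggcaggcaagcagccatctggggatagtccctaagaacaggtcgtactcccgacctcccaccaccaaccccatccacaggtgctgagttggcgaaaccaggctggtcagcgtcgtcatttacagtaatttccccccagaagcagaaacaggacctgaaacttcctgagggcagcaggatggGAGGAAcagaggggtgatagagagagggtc
C3, chr17:57228137-57228386, minus strand: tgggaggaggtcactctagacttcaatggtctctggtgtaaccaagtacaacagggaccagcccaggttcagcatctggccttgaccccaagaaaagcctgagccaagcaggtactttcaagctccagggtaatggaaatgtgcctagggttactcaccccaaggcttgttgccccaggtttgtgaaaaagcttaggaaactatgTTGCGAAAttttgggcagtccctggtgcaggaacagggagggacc
Both strands were searched for GAGGAA, the core bound by the myeloid factor PU.1, for TTGCNNAA, a C/EBP-type pair of sites, and for TATAAA. Windows of 250 bases before the start held these motifs in 23.3%, 9.56% and 12.4% of 32851 promoters, in this order. GAGGAA began 30 bases before the start of C1qb, and on the opposite strand it lay in the window of C1qc. TTGCNNAA began 45 bases before the start of C3. The windows of Cfd and C5ar1 held none of the 3 motifs. A match describes the letters only.

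Levels between genes were compared per length, on the FPKM scale that the authors deposited. The C1q chains stood highest, with a mean over the 4 libraries of 173 FPKM for C1qb, 170.4 for C1qa and 169 for C1qc. C3 followed at 129.6 FPKM, then Cfd at 65.9, Serping1 at 42.7, C5ar1 at 21.9, C4b at 8.40 and Cfb at 3.16. The values of the C1q chains overlapped one another (159 to 192 FPKM) and lay above every C3 value (115 to 142). C3 and Cfd (43.0 to 116) overlapped at their edges, as did Cfd and Serping1 (31.4 to 51.4). No other neighbours in this order overlapped, with C5ar1 at 19.0 to 27.4, C4b at 4.01 to 11.8 and Cfb at 2.89 to 3.46 FPKM.

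DMM and sham knees were compared in a model with the mouse as a block. C4b, whose protein is cleaved to form part of the classical C3 convertase, was the only 1 of the 9 to pass an adjusted p of 0.05, and it was higher in DMM knees. None was lower. Over all genes tested, 0.633% were called higher and 0.0153% lower. Fold changes were above 0 for 3 of the 9, against 6270 of the 13103 genes tested. The median of the 9 was -0.11 on the log2 scale against -0.01 over all genes.

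**Figure D1:**
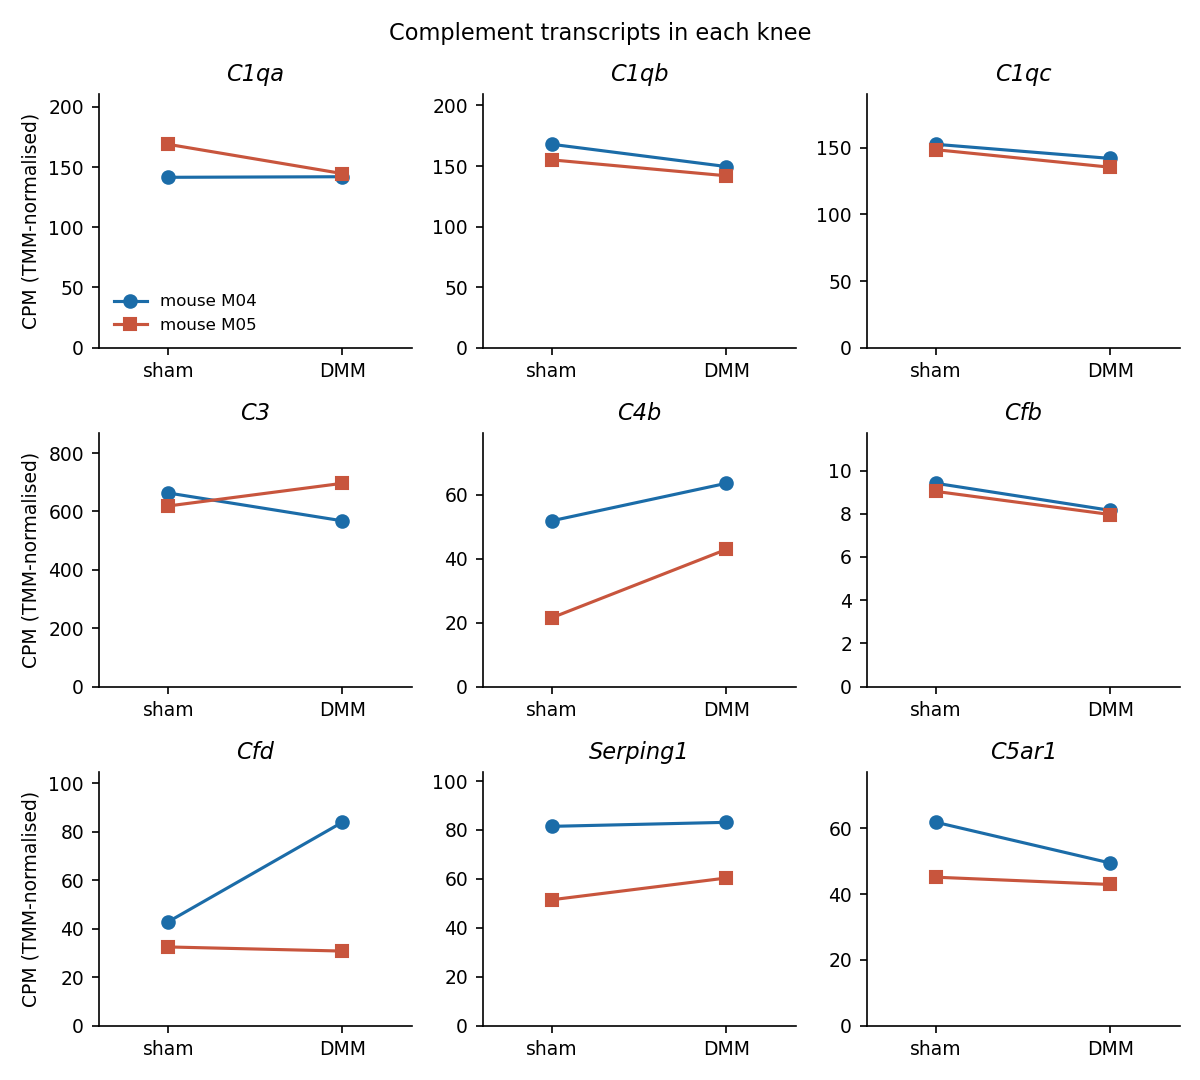
TMM-normalised CPM (y axis, from 0, scaled for each gene) of the 9 complement genes in sham and DMM knees (x axis); each point is 1 library, and a line joins the knees of 1 mouse (M04 circles, M05 squares). The C1q chains and Cfb are nearly level, C4b is higher in the DMM knee of both mice, and Cfd is highest in the DMM knee of M04, at 83.9 CPM.

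The recognition chains C1qa, C1qb and C1qc encode the subunits that assemble in equal numbers into C1q. C1qa had 142 CPM in the sham and 142 in the DMM knee of M04, and in M05 169 and 145, the sham value first here and in the sentences on the other genes. C1qb had 168 and 149.6 CPM in M04 and 155 and 142 in M05. C1qc had 153 and 142 CPM in M04 and 149 and 135 in M05. C1qb and C1qc were lower in the DMM knee of both mice, with no overlap between the groups, but by at most 0.17 on the log2 scale. Among all genes tested, 12.3% had both DMM libraries below both sham libraries, as had 3 of the 9 complement genes (C1qb, C1qc and Cfb), and 13.2% had both above, as had 0 of the 9. The fold changes were -0.11 for C1qa, -0.15 for C1qb and -0.12 for C1qc, each with SE 0.15 and an adjusted p of 1.0 by edgeR's quasi-likelihood test.

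The 3 genes lie next to each other on chromosome 4, with no gene between them in the GRCm38.p6 annotation. Their SD of log2 CPM over the libraries was 0.12, 0.10 and 0.08 (C1qa, C1qb, C1qc), lower than in all but 15.6%, 10.4% and 5.17% of genes tested. Genes of all levels were compared. Cfb (0.11, 13.2%) and C3 (0.13, 17.2%) on chromosome 17 varied about as little. Within a library, C1qb had 1.19 counts for each count of C1qa in the sham knee of M04 and 1.05 in its DMM knee, and 0.918 and 0.981 in those of M05. For C1qc per C1qa these ratios were 1.08, 1.0, 0.880 and 0.936 in the same order. Both ratios were thus at or above 1 in M04 and below 1 in M05. The 11 macrophage markers, led by Csf1r and Cd68, summed to 559 and 549 CPM in M04 and to 494 and 518 in M05, none was at 0 in all libraries, and none of the 10 tested was called in either comparison. Some single markers varied more than the sum, such as Timd4 with 3.63 and 0.669 CPM in M04 and 2.35 and 4.43 in M05, which was chosen after its values were seen. The C1q sum was 462 and 434 CPM in M04 and 473 and 422 in M05.

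C3, the component on which all pathways converge, held 44.0% to 53.4% of the counts of the 9 genes. It had 663 CPM in the sham and 568 in the DMM knee of M04, and in M05 619 and 696. The mice thus went opposite ways, and the groups overlapped. The log2 ratio of DMM to sham was -0.22 in M04 (95% counting interval -0.27 to -0.18) and 0.17 in M05 (0.13 to 0.21). These intervals come from an exact binomial share and cover counting error only. The fold change over both mice was -0.03 (SE 0.16, adjusted p = 1.0 by edgeR).

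C4b had 51.9 CPM in the sham and 63.5 in the DMM knee of M04, and in M05 21.6 and 42.9. The DMM knee was higher in both mice, although the sham knee of M04 exceeded the DMM knee of M05, so the groups overlapped. By edgeR, C4b rose by 0.63 in log2 units, with an SE of 0.17 and an adjusted p of 0.0359. The ratio was 0.29 in M04 (counting interval 0.15 to 0.44) and 0.99 in M05 (0.79 to 1.19). The 10 chondrocyte markers moved with it: 6 of the 10 were called higher in DMM knees, none was at 0, and their sum was likewise lowest in the sham knee of M05. The chondrocyte sum was 1201 CPM there, against 4221 to 5694 in the other libraries. A lowest sum there was not particular to these markers, but the other lists stood less far below. The fibroblast and stroma markers summed to 8128 CPM there, against 9404 to 11608. The macrophage markers summed to 494 CPM there, against 518 to 559, and Cd163 among them was highest there (22.6 CPM). Of the 10 fibroblast and stroma markers, 4 were called higher in DMM knees. The sums of the other marker lists were lowest in a DMM knee. The part of these cells in the C4b result was not tested. In fits of 3 libraries with no mouse term, the fold change of C4b was 0.04 when the sham knee of M05 was left out and 1.30 when that of M04 was. It was 0.23 when the DMM knee of M04 was left out and 0.79 when that of M05 was. With all 4 libraries, the call was lost without the mouse block (0.54, adjusted p = 1.0), with DESeq2 (0.64, adjusted p = 1.0), with DESeq2 size factors in edgeR (0.63, adjusted p = 0.160), without the haemoglobin rows (0.63, adjusted p = 0.275) and in limma on FPKM (0.63 and 0.55 with pseudocounts of 0.1 and 1). The fold change stayed between 0.54 and 0.64 in these fits of all libraries.

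The C4b count may be shared with another row. C4a, a near copy of C4b on chromosome 17, had 24.5 and 26.5 counts in M04 and 12.5 and 21.0 in M05, against 700.5, 950.5, 367.5 and 522 for C4b. Counts of both genes were not whole in 3 of the 4 libraries, and the deposited FPKM of C4a was at most 0.0145. Reads that match both copies could be divided between them, and the values of C4b are uncertain to that extent.

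Cfb encodes factor B, the catalytic subunit of the alternative convertase, and was the lowest of the 9. It had 9.41 CPM in the sham and 8.16 in the DMM knee of M04, and in M05 9.03 and 7.96. DMM knees were lower in both mice without overlap, but each mouse's counting interval included 0, with ratios of -0.21 (-0.58 to 0.16) and -0.18 (-0.56 to 0.19). The fold change was -0.19 (SE 0.29, adjusted p = 1.0 by edgeR). Cfb adjoins C2 on chromosome 17, and its counts were not whole in 2 libraries.

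Cfd encodes factor D, or adipsin, the protease that cleaves factor B. It had 42.9 CPM in the sham and 83.9 in the DMM knee of M04, and in M05 32.5 and 30.8. The DMM knee of M04 alone stood high, at 1.96 times its sham knee, while the knees of M05 differed little. The log2 ratio was 0.97 in M04 (counting interval 0.83 to 1.11) and -0.08 in M05 (-0.27 to 0.11). The fold change over both mice did not pass (0.46, SE 0.17, adjusted p = 0.404 by edgeR), and without the DMM library of M04 it was -0.29. The 7 adipocyte markers, led by Fabp4 and Adipoq, summed to 113 and 143 CPM in M04 and to 127 and 112 in M05. Their sum was thus also highest in the DMM knee of M04, though none of the 6 tested was called and none was at 0 in all libraries. Single markers differed. Adipoq, Cidec, Plin1 and Plin4 were highest in the DMM knee of M04. Fabp4 was highest in the sham knee of M05 (75.4 CPM) and Lipe in the DMM knee of M05 (21.3 CPM), and Lep had at most 1 count in a library. Unlike Cfd, the adipocyte sum was higher in the sham knee of M05 than in that of M04. The sums of the chondrocyte (5694 CPM) and fibroblast markers (11608 CPM) were highest in the DMM knee of M04 too. The sums of the other marker lists were highest in a sham knee. That of the skeletal muscle markers was also higher in the DMM (335 CPM) than in the sham knee of M04 (126 CPM). In M05 it was 445 CPM in the sham and 125 CPM in the DMM knee. The part of these cells in the Cfd values was not tested.

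**Figure D2:**
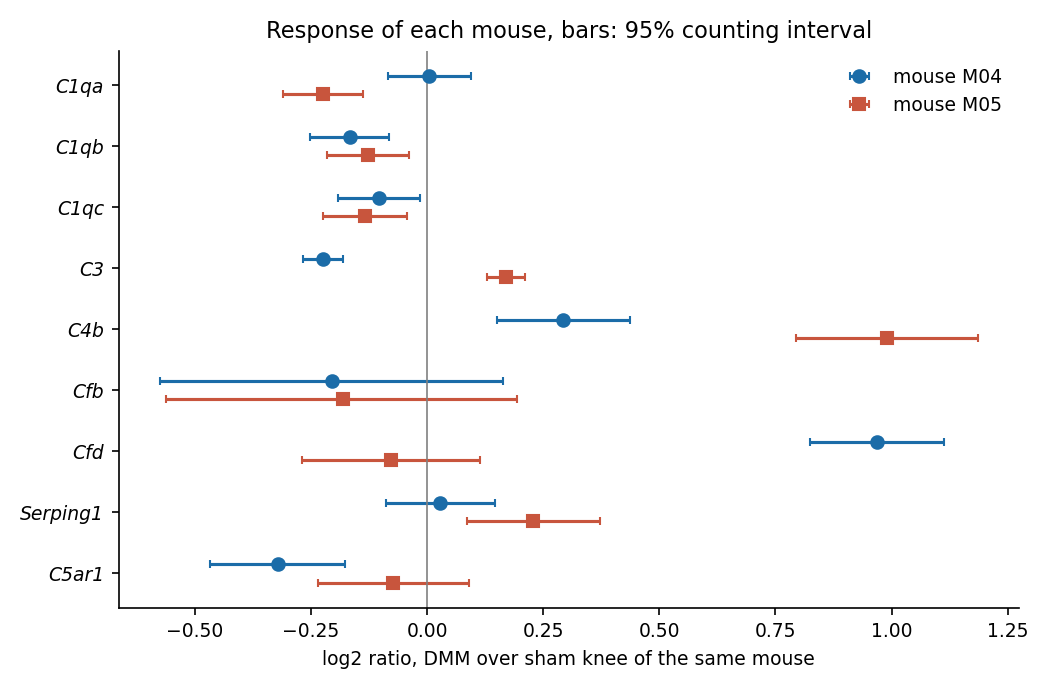
Log2 ratio of the DMM to the sham knee (x axis) for each complement gene (y axis) in mouse M04 (circles) and M05 (squares); bars are 95% intervals for counting error, and there is 1 library per knee. C3 lies on opposite sides of 0 in the mice, C4b is above 0 in both and Cfd is far above 0 only in M04, at 0.97.

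Serping1 encodes C1 inhibitor, which inactivates the proteases of the C1 complex. It had 81.5 CPM in the sham and 83.1 in the DMM knee of M04, and in M05 51.5 and 60.4. The DMM value was slightly above the sham value in each mouse, and the mice did not overlap. The fold change for DMM was 0.13 (SE 0.16, adjusted p = 1.0 by edgeR). It was -0.14 with the DMM knee of M04 left out and -0.18 with the sham knee of M05 left out.

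C5ar1 encodes the receptor for C5a on neutrophils and macrophages. It had 61.9 CPM in the sham and 49.5 in the DMM knee of M04, and in M05 45.2 and 42.9. DMM knees were lower in both mice, but the DMM knee of M04 exceeded the sham knee of M05. The fold change was -0.20 (SE 0.16, adjusted p = 1.0 by edgeR), with a ratio of -0.32 in M04 (counting interval -0.47 to -0.18) and -0.07 in M05 (-0.24 to 0.09).

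The mice were also set against each other, with the surgery as a term. Lower levels in M05 were called for 3 of the 9 genes, C4b, Cfd and Serping1, and higher levels for none. The background was 1.64% of all genes called lower and 0.962% called higher in M05. With 1 animal on each side, the SE and p-values of this comparison reflect spread between knees, not between animals. By edgeR, C4b had a log2 difference of -0.91 (SE 0.17, adjusted p = 4.02e-05), Cfd one of -0.92 (SE 0.17, adjusted p = 2.94e-05) and Serping1 one of -0.56 (SE 0.16, adjusted p = 0.0213). With C5ar1 (-0.33, SE 0.16, adjusted p = 0.331) they were the 4 of 9 genes with both libraries of M05 below both of M04, an order found in 22.8% of all genes. C1qa (0.14, adjusted p = 0.756) was the 1 gene with both M05 libraries higher, as were 22.5% of all genes. The remaining differences were 0.10 for C3, -0.10 for C1qb, -0.05 for C1qc and -0.05 for Cfb.

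Marker lists of other cells moved between the mice as well. Of the 10 chondrocyte markers, 7 were called lower in M05, among them Col2a1 and Comp. The 10 fibroblast and stroma markers, led by Col1a2 and Col1a1, summed to 10037 and 11608 CPM in M04 and 8128 and 9404 in M05, and 1 was called lower in M05 and 4 higher in DMM knees. The neutrophil and marrow granulocyte markers, of which 9 were found with S100a9 and Ngp the highest, summed to 39027 and 39002 CPM in M04 and 65345 and 56189 in M05, with 2 called higher in M05. None of these genes was at 0 in all libraries. Their part in the complement values was not tested. With no replicate block, that is with the mouse as the only term, none of the 3 calls passed, with adjusted p = 0.349 for C4b, 0.258 for Cfd and 0.123 for Serping1. With 1 library left out, the mouse was again the only term, so an unbalanced effect of surgery can enter. There the C4b difference ran from -0.43 (without the sham knee of M05) to -1.42 (without the DMM knee of M05). That of Cfd ran from -0.44 (without the DMM knee of M04) to -1.39 (without the sham knee of M04). Of these fits only the one without the DMM knee of M05 kept a call, for C4b and for Serping1 (-0.67, adjusted p = 0.0277).

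**Figure D3:**
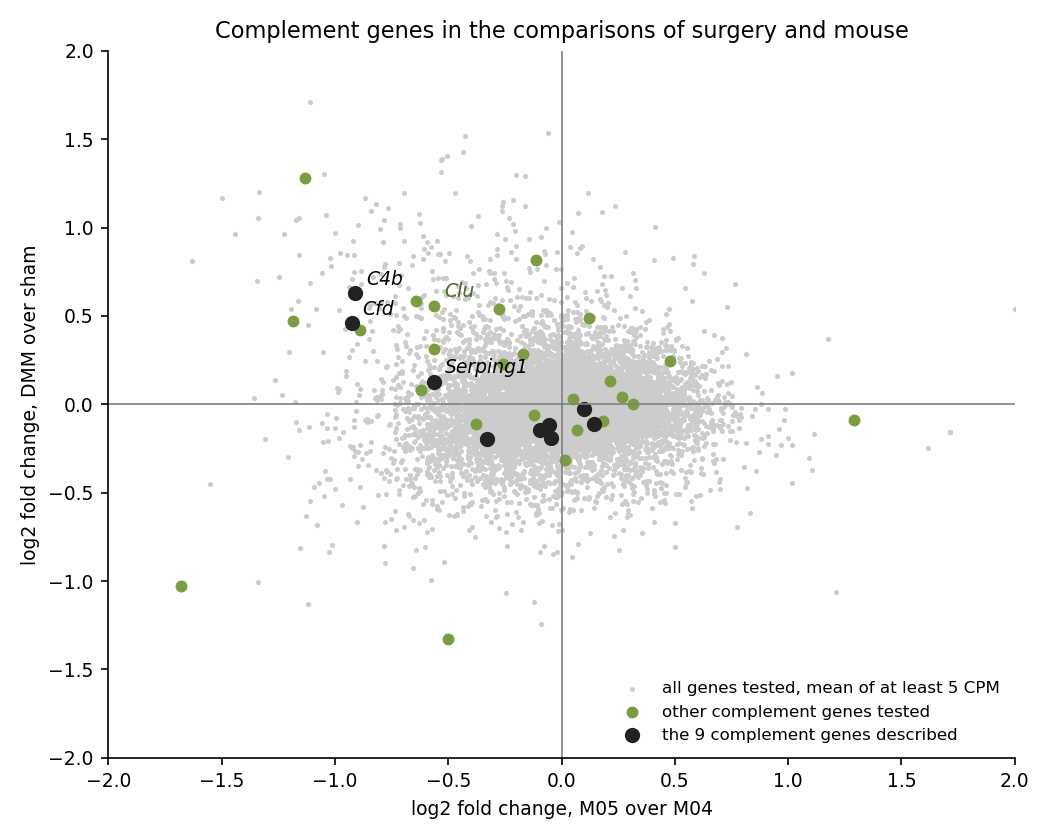
Log2 fold change of DMM over sham (y axis) against that of M05 over M04 (x axis), both from the same 4 libraries; black points are the 9 complement genes, green points the 26 other complement genes tested and grey points all genes averaging 5 CPM or more, of which 4 lie outside the axes. C4b, at 0.63 and -0.91, and Cfd, at 0.46 and -0.92, lie apart from the other black points.

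The responses of the mice were compared by setting a pair of libraries, DMM of M04 and sham of M05, against the other pair, which counts effects of mouse and surgery as spread. By edgeR this called 0.0153% of all genes and none of the 9, for which the adjusted p was 1.0 throughout and the lowest unadjusted p was 0.165, for Cfd. By sign, the DMM knee was higher in both mice for C4b and Serping1, as for 23.2% of all genes, and lower in both for C1qb, C1qc, Cfb and C5ar1, as for 23.8%. The counting intervals of the mice did not overlap for C1qa, C3, C4b and Cfd. They cover counting error only, and the share of all genes without such overlap was not computed. No difference of response can be read from this.

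**Figure D4:**
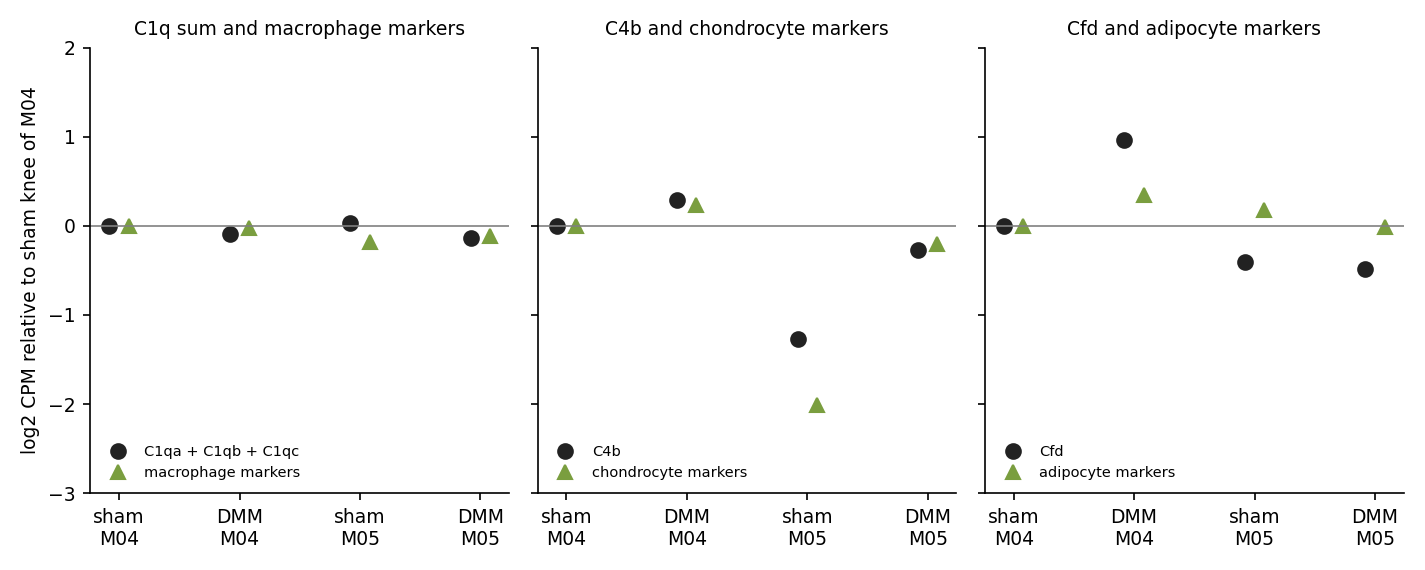
Log2 CPM relative to the sham knee of M04 (y axis) in the 4 libraries (x axis) for the summed C1q chains, C4b and Cfd (black circles), each beside the summed markers of 1 cell type (green triangles: 11 macrophage, 10 chondrocyte and 7 adipocyte genes). C4b and the chondrocyte markers are both lowest in the sham knee of M05, at 21.6 and 1201 CPM, while the C1q sum stays between 422 and 473 CPM. The macrophage sum (494 CPM, against 518 to 559 in the other libraries) is lowest there too, by less. So is the fibroblast and stroma sum (8128 CPM, against 9404 to 11608, not shown).

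A further 44 complement genes placed the 9 in their pathway. All 44 were listed, 10 had no count in any library, and 26 were tested. None was called higher or lower in DMM knees. An unadjusted p under 0.05 by edgeR was found for 3 of the 26, against 681 of all 13103 genes tested. Of the 26, 17 had a fold change above 0, against 6270 of the 13103, and the median of the 26 was 0.10. Among the initiators, the ficolin Fcnb, which neutrophils carry, was highest at a mean of 238 CPM (DMM fold change 0.13), followed by the macrophage ficolin Fcna at 66.0 (-0.11) and the scavenger receptor Colec12 at 27.7 (0.28). The lectin gene Mbl2, Masp1 and Colec10 had no counts, for which the upper limit, set at 3 counts, was 0.246 CPM in the library with the least effective depth.

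Properdin (Cfp), which stabilises the alternative convertase, had 188 CPM and a fold change of 0.00. The terminal genes that form the membrane pore were scarce: C6 had 4.14 and C8g 1.41 CPM on average, Hc, which encodes C5, had at most 5 counts in a library, and C8b and C9 had none. The receptors were led by the integrin chains Itgb2 (395 CPM, 0.03), Itgam (218 CPM, -0.15) and Itgax (10.2 CPM, 0.31), which pair into the receptors for cleaved C3. The protease gene Cfi, C4bp, Cpn1, Cpn2 and Cd46 had no counts, while the membrane regulators Crry (Cr1l, 64.3 CPM, 0.04) and Cd59a (20.4 CPM, -0.13) were present.

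Clu, which encodes clusterin, an inhibitor of pore assembly, was the only 1 of the 44 called between the mice. It had 229.9 CPM in the sham and 229.2 in the DMM knee of M04, and in M05 105 and 229.1, so the sham knee of M05 alone was low. By edgeR the log2 difference of M05 from M04 was -0.56, with an SE of 0.16 and an adjusted p of 0.0206, while the fold change for DMM, 0.56, did not pass (adjusted p = 0.0574). Without the sham library of M05 these values were -0.0018 and -0.0067. The M05 call was also lost with no replicate block (adjusted p = 0.741), with DESeq2 (0.641), with its size factors in edgeR (0.411), without the haemoglobin rows (0.448) and in limma, and the DMM fold change passed without the sham library of M04 (1.13, adjusted p = 0.0068).

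Genes with the most similar profiles were sought by the Euclidean distance between log2 CPM values centred over the 4 libraries, among 9208 named genes averaging 5 CPM or more. With so few libraries, close profiles are common, and the list only describes them. For C4b the nearest were Col11a1, a collagen chain of cartilage (distance 0.14), and Fam189b (0.15). For Cfd they were Thbs2, a matricellular thrombospondin (0.20), and Scd1, a fatty-acid desaturase (0.32). For Serping1 they were Fam53c and Parp14 (0.03 each). The other profiles had close neighbours: Gimap1 and Spryd3 for C1qa, Btaf1 and Mtmr3 for C1qb, Ppp5c and Cast for C1qc, Slc17a9 and Pex3 for Cfb, and Gpr155 and Xk for C5ar1, all within 0.03. C3 was nearest to Rhd, a red-cell antigen gene, and Faap20 (0.02 each). Among the 9 themselves, C1qb, C1qc and Cfb lay within 0.08 of one another, and C4b lay 1.37 from C1qa, the greatest distance.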

How the data were processed

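Messenger RNA was measured in 4 libraries (2 mice, a sham and a DMM knee each). The authors deposited estimated counts per gene (9.21% to 10.9% of values were not whole) and FPKM values. Per the submitters' processing notes the genome build was GRCm39; the sources used here do not name the aligner, the counter or the strand setting. The 4 columns that repeat the libraries held equal values and were not counted again. Counts were rounded and tested with edgeR 4.0.16 (R 4.3.3): filterByExpr, TMM, robust quasi-likelihood fit, Benjamini-Hochberg over 13103 genes, threshold 0.05. SE is the size of the log2 fold change over the square root of F.

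Mouse entered as a block since, per the labels, each pair of knees came from 1 animal; deviations of same-mouse libraries correlated at 0.13. With 1 residual degree of freedom, and prior degrees of freedom infinite for 83.0% of genes, p-values rest mainly on the trend across genes. The mice are the only replicates. DESeq2 1.42.0, limma 3.58.1 on log2(FPKM + 0.1) and log2(FPKM + 1), other filters and scalings, and fits leaving out a library were alternatives. The code was tested on simulated data.

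The genes and lists were chosen with earlier results of these data known. Besides the 9 genes, complement genes past the threshold, the 3 highest others of each complement list, the 2 nearest profiles and the 2 highest and any absent markers are named. C2, C4a, Hc and the complement genes without counts were named after their values were seen. The values of 1 gene that the rule names are not reported here.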

Additional observations from a re-analysis of the deposited data

How the results depend on the processing

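Counts of calls depended on the setting, and the cause was not tested. Genes higher in DMM knees numbered 83, against 13 with DESeq2, 35 with its size factors in edgeR, 23 without haemoglobin rows, and 0 without the replicate block or in limma on either FPKM scale (in either direction, 681 genes had an unadjusted p under 0.05, against 322 without the block and 740 and 692 in limma). Genes lower in DMM knees numbered 2, against 4 at a mean of at least 5 CPM, 1 with no filter and in either limma fit, and 0 in the other settings just named. In M05 against M04, 126 higher became 52, 62, 32 and 0, and 215 lower became 20, 124, 71 and 0, in the order DESeq2, size factors, haemoglobin, and block or limma. The complement gene higher in DMM knees (C4b) was called at a mean of at least 5 CPM, with no filter and without robust moderation (adjusted p = 0.0267, 0.0499 and 0.0382), and 0 were called with DESeq2, its size factors, no haemoglobin rows, no block or limma. In these same 5 kinds of fit the M05 call of Clu was lost, while at a mean of at least 5 CPM its DMM fold change passed (adjusted p = 0.0457). The 3 complement genes lower in M05 became 2 with DESeq2 size factors in edgeR, 1 without haemoglobin rows and 0 with DESeq2, limma or no block. DESeq2 gave no adjusted p for C4b and Cfd there, so they could not be called by it. Its differences for them were -0.91 (DESeq2 unadjusted p = 0.000284) and -0.92 (0.000645).

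Fits that leave out 1 library have a single term and 1 residual degree of freedom. For the DMM fold change the term is surgery, without the mouse. For the M05 difference it is the mouse, without surgery, so an unbalanced effect of surgery can enter. They called 0 to 95 genes higher and 0 to 26 lower in DMM knees, 0 to 200 higher and 0 to 131 lower in M05, and of the 9 complement genes 0 to 1 higher in DMM knees and 0 to 2 lower in M05. Over these fits the DMM fold change ran from -0.24 to 0.016 for C1qa, -0.18 to 0.12 for C3, 0.04 to 1.30 for C4b, -0.29 to 1.15 for Cfd, -0.18 to 0.48 for Serping1, -0.42 to 0.034 for C5ar1 and -0.0067 to 1.13 for Clu. The M05 difference ran from -0.18 to 0.0019 for C1qb, -0.12 to 0.014 for C1qc, -0.018 to 0.22 for C3 and -0.15 to 0.073 for Cfb. C4b, Cfd, Serping1 and Clu were below 0 in M05 in every fit listed. In limma the M05 difference of Cfb turned to 0.013 and 0.010 with pseudocounts of 0.1 and 1. Scaling moved the median of all genes by under 0.1 on the log2 scale.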
